A study of Drosophila melanogaster with 2 samples.

Results

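Chromosome 4 of Drosophila melanogaster carried 447 of the 30000 peaks in a pooled peak list for CG12744, a protein assayed here as a transcription factor by chromatin immunoprecipitation and sequencing (ChIP-seq). They were taken by 1 rule, that the peak lies on chromosome 4 of the dm6 genome build, whatever its signal. Of these, 8 were also in the authors' thresholded list of 2758 peaks, and 104 had a summit within 100 bp in the separate list of each replicate. The material was 1 group, whole embryos aged 0 to 24 h with both sexes mixed, from flies transgenic for a fusion of CG12744 to green fluorescent protein (GFP). Chromatin was precipitated with an antibody against GFP. The labels number its samples as biological replicates 2 and 4. No other genotype, treatment or stage was present, so chromosome 4 was compared with the other 5 chromosome arms of the same samples. A tagged transgene reports the fusion protein, and a whole embryo mixes all tissues and all stages of that day, so a peak cannot be assigned to a cell type or a time. A control is named in the records and was not used here.

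Chromosome 4 is the smallest chromosome of the fly, often called the dot chromosome. Most of it has features of heterochromatin: it is rich in transposon remnants and is bound by the heterochromatin protein HP1a. Its genes are nevertheless transcribed, and the chromosome-specific protein POF binds many of them. Several genes with large roles in development lie on it, among them the Pax6 genes ey and toy, the Hedgehog effector ci and the Wnt effector pan.

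The highest peaks of the chromosome are shown first as sequence, because the results below turn on where they lie and which known sites they hold. Each is the 151 bases centred on the summit, read from Release 6 (dm6) of the RefSeq genome and written 5′ to 3′. Capitals mark any match, on either strand, to 1 of 8 motifs: TATCGATA (the site of Dref), CGATA (the core of the BEAF-32 site), GGTCACAC (core promoter motif 1), GAGAG (GAGA factor), CAGGTAG (Zelda), GCCAT (the core of the Pho site), CACTG and CAACACTG. The last 2 were known from earlier results of these data, and CGATA and CACTG also lie inside TATCGATA and CAACACTG. The first 5 sequences are the thresholded peaks whose window holds no UTR.
zfh2, peak 1, chr4:497814-497964, plus strand: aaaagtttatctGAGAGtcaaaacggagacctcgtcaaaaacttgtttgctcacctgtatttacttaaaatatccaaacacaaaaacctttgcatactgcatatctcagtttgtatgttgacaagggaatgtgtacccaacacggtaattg
lncRNA:CR43437, peak 3, chr4:424718-424868, plus strand: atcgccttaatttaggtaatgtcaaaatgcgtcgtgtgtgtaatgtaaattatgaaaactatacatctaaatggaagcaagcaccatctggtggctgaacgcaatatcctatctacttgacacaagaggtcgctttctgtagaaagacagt
Sox102F, peak 4, chr4:807501-807651, plus strand: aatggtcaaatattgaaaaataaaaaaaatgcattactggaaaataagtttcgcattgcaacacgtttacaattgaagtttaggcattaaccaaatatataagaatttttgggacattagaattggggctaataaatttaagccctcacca
gw, peak 5, chr4:660020-660170, plus strand: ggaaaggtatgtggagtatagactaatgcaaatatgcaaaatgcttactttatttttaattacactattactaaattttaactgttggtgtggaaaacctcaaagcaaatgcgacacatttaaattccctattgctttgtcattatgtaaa
fuss, peak 7, chr4:982878-983028, plus strand: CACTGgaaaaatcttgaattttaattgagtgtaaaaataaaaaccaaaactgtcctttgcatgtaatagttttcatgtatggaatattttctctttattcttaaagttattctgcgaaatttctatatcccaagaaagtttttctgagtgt
PlexA was the highest unthresholded promoter peak with a TATCGATA site in this window.
PlexA, peak 10, chr4:1027136-1027286, plus strand: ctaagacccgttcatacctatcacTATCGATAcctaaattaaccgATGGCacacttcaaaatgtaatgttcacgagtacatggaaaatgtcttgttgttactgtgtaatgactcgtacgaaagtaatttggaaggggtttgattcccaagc
In the last sequence capitals mark instead the bases of an annotated INE-1 transposon, as this was the highest peak in an INE-1 copy found in both replicates.
ey intron, peak 34, chr4:709846-709996, plus strand: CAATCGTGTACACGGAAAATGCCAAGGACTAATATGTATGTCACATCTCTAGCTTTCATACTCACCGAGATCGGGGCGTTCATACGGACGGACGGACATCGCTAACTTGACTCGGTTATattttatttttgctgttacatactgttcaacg

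Matches to the searched letters differed between the thresholded windows. Those at lncRNA:CR43437, Sox102F and gw had no match to any of the 8 motifs, that at zfh2 had a GAGAG and that at fuss had a CACTG at its edge. Of the 3 thresholded windows not printed, those of peaks 2 and 6 had no match, and that of peak 8, at ey, held the letters of BEAF-32, of GAGA factor and of Pho. None of the 8 thresholded peaks had TATCGATA within 100 bp of its summit.

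Of the 8 thresholded peaks, 4 lay within 500 bp of a start site (50%, exact interval 15.7 to 84.3%). The share of thresholded peaks on the other arms was 57.9%, inside this interval. The 4 were at Sox102F, gw, CG31999 and ey, and the 3 highest peaks were not among them. Values are the deposited signal of the authors' peak caller, whose scale is not stated, with its rank in the same list (1 is the highest). Signals are compared only within a list. Peak 1 of the chromosome (summit 497889) had a signal of 215 and rank 248 in the pooled list. In replicate 2 it had a signal of 133 at rank 184, and in replicate 4 a signal of 82.3 at rank 419. It lay between genes, 3921 bp upstream of the nearest start site, that of zfh2, which encodes a zinc finger homeodomain protein.

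Peak 2 (summit 1113314) had a signal of 206 at rank 273 in the pooled list, 120 at rank 241 in replicate 2 and 82.8 at rank 414 in replicate 4. It was not at a promoter. The summit was 3 bp inside the annotated end of sv, a Pax gene for sense organ development, in its 3' UTR, and also in the 3' UTR of the oppositely oriented Cals, a calsyntenin gene. Peak 3 (summit 424793) had a signal of 198 at rank 299, with 108 at rank 306 in replicate 2 and 90.8 at rank 335 in replicate 4. Its nearest annotated start site was that of lncRNA:CR43437, 1274 bp away, and the nearest start of a protein-coding gene, lgs, was 19118 bp away. None of the 3 highest peaks was therefore within 500 bp of a start site. They were also narrow in the pooled list, 204, 181 and 178 bp wide.

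Promoter peaks came next. A promoter peak here has its summit within 500 bp of any annotated transcript start. At Sox102F, which encodes a Sox family transcription factor, peak 4 (summit 807576) was 229 bp upstream of a start site, with a signal of 146 at rank 625, 58.9 at rank 1215 in replicate 2 and 86.7 at rank 372 in replicate 4. At gw, the gene for the GW182 protein of microRNA silencing, peak 5 (summit 660095) was 112 bp upstream, with a signal of 111 at rank 1106, 55 at rank 1409 in replicate 2 and 50.4 at rank 1176 in replicate 4. Sox102F was the higher of the pair in both replicates. Its rank in replicate 4 was close to those of the 3 highest peaks, and its rank in replicate 2 was not.

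The remaining thresholded peaks were weaker. Peak 6 (summit 226024) lay 68 bp upstream of a start site of CG31999, with a signal of 80.6 at rank 2017 in the pooled list, 58.4 at rank 1242 in replicate 2 and 25.4 at rank 4567 in replicate 4. Peak 7 (summit 982953) lay between genes, 4464 bp upstream of fuss, a gene of the Ski/Sno corepressor family, with a signal of 71.8 at rank 2511, 33.9 at rank 3756 in replicate 2 and 39.1 at rank 1923 in replicate 4. Peak 8 (summit 697713) lay 24 bp downstream of a start site of ey, the Pax6 gene that directs eye development, with a signal of 70.4 at rank 2619, 42.2 at rank 2411 in replicate 2 and 30.7 at rank 3144 in replicate 4. Peaks 6, 7 and 8 each fell outside the 2758 highest peaks of at least 1 replicate.

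**Figure D1:**
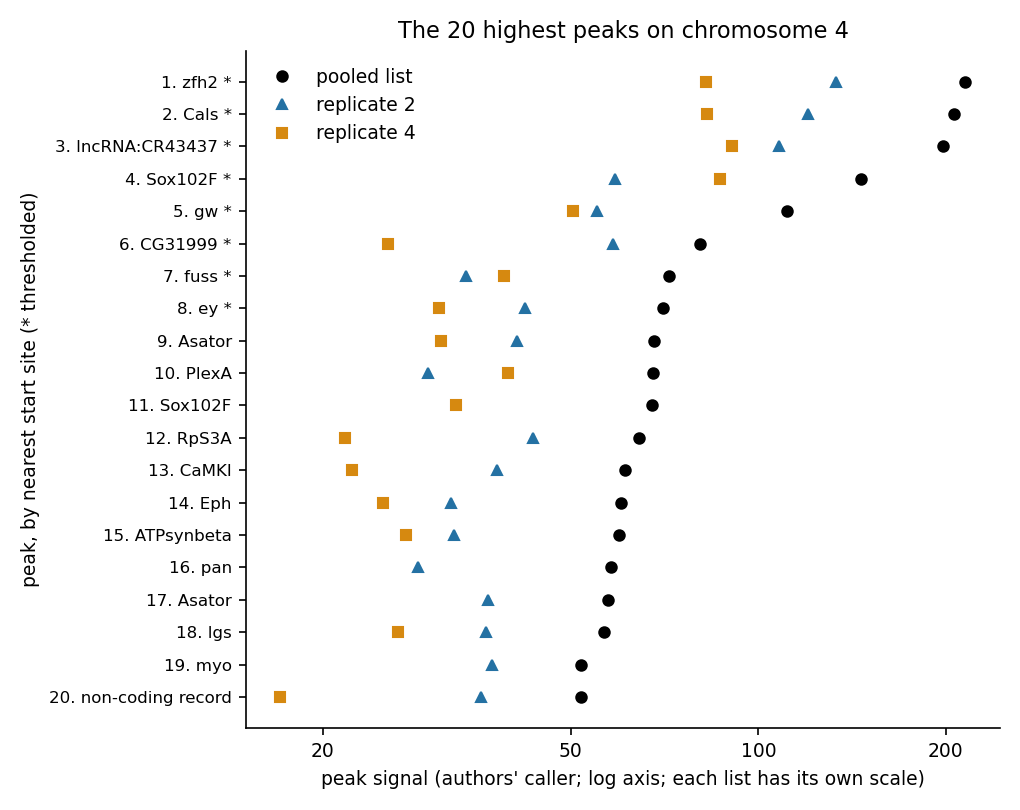
Deposited signal (log axis) of the 20 highest chromosome 4 peaks in the pooled list (circles), replicate 2 (triangles) and replicate 4 (squares), ordered from the highest pooled signal at the top and named by the nearest start site, with an asterisk for the 8 thresholded peaks. A missing symbol means no summit within 100 bp in that replicate, as at peak 11 in replicate 2 and at peaks 16, 17 and 19 in replicate 4.

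The lowest signal in the thresholded list was 68.4, and chromosome 4 had 3 peaks just under it. Peak 9, 525 bp upstream of Asator, a protein kinase gene, had a signal of 68 in the pooled list. Peak 10, 110 bp upstream of PlexA, a semaphorin receptor gene, had 67.8. Peak 11, a further summit 437 bp upstream of a Sox102F start, had 67.4 and no summit within 100 bp in replicate 2. Just above the limit stood ey at 70.4. The next peaks included genes used in most cells. RpS3A, for a ribosomal protein, had a signal of 64.3 in the pooled list, 43.4 in replicate 2 and 21.7 in replicate 4, with the summit 3 bp upstream of a start site. ATPsynbeta, for the catalytic beta subunit of the mitochondrial ATP synthase, had 59.7 in the pooled list, 32.5 in replicate 2 and 27.2 in replicate 4, at a peak shared with CG11076. The Wnt pathway genes pan, the TCF factor, and lgs, its adaptor, had 58 and 56.6 in the pooled list. At lgs the replicates had 36.5 (replicate 2) and 26.4 (replicate 4). This highest of 5 pan promoter peaks had 28.4 in replicate 2 and no summit within 100 bp in replicate 4. A neighbouring pan peak 200 bp away was matched in replicate 4 alone, at 22.1. Another, of 46.6 in the pooled list, was matched in both, with 25.9 in replicate 2 and 22.6 in replicate 4.

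Over all signals the chromosome had more peaks for its length than any other arm, and among the highest signals it had fewer. The 447 peaks were 1.49% of the pooled list (exact 95% Clopper-Pearson interval 1.36 to 1.63%, which like those below covers counting error over peaks and not the variation between embryo collections). Chromosome 4 is 1.01% of the length of the 6 arms. The ratio of these shares was 1.48 (1.35 to 1.62), against 0.931 to 1.07 in the other 5 arms. Per 100 kb there were 33.2 peaks on chromosome 4 and 20.9 to 24.0 on the other arms. The same held in each replicate: replicate 2 had 389 peaks on chromosome 4, a ratio of 1.29 against 0.938 to 1.07, and replicate 4 had 431, a ratio of 1.43 against 0.902 to 1.09.

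This ratio changed with signal rank. Among the 2758 highest pooled peaks it was 0.288 (0.124 to 0.567) for chromosome 4, from the 8 thresholded peaks, against 0.971 to 1.08 in the other arms. From rank 2759 to 10000 there were 63 chromosome 4 peaks, a ratio of 0.864 (0.664 to 1.1), an interval that includes the whole range of the other arms, 0.932 to 1.05. From rank 10001 to 20000 there were 191, a ratio of 1.90 (1.64 to 2.18) against 0.889 to 1.12. In the last 10000 ranks there were 185, a ratio of 1.84 (1.58 to 2.12) against 0.891 to 1.06. Each replicate alone had its lowest ratio for chromosome 4 in the highest ranks, 0.36 in replicate 2 and 0.288 in replicate 4. Between ranks 2759 and 10000 the replicates stood on opposite sides of 1, at 0.754 in replicate 2 and 1.29 in replicate 4. Past rank 10000 both were above the range of the other arms.

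**Figure D2:**
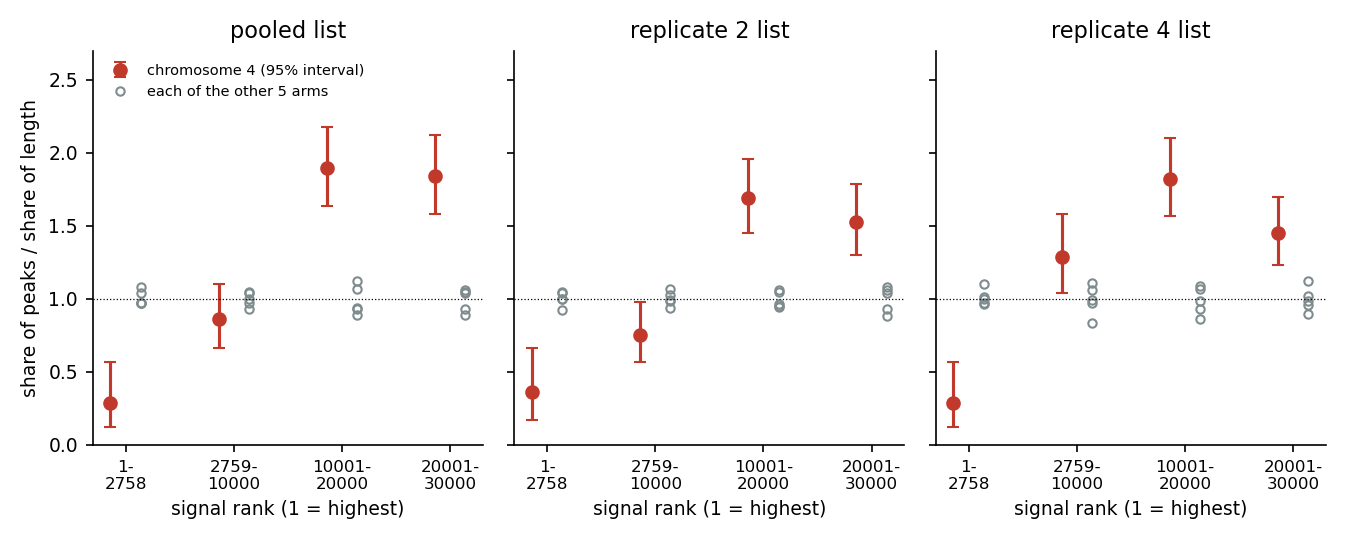
Share of peaks divided by share of length, by signal rank, for chromosome 4 (filled, exact 95% interval) and each of the other 5 arms (open), in the pooled list and in each replicate list. The dotted line is a share equal to that of length; chromosome 4 is below every other arm in the highest ranks and above every other arm past rank 10000.

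Signals on the chromosome were accordingly lower. The median signal of the 447 peaks was 23.6 (quartiles 20.2 and 30, range 17.4 to 215), against 26.5 on the other 5 arms (quartiles 20.9 and 39.4). Their median rank was 18415, against 14937. It was 17419 in replicate 2 (other arms 14956) and 16239 in replicate 4 (other arms 14977). The pooled list holds peaks and background that the authors kept as input for thresholding, so a peak of low rank need not be a site of binding.

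A minority of these peaks passed the authors' threshold or was found in both replicates, and both shares were below those of the whole list. The thresholded peaks were 1.79% of the 447 (0.776 to 3.5%), against 9.31% on the other arms and 9.19% of all pooled peaks. The 104 peaks with a summit within 100 bp in both replicates were 23.3% (19.4 to 27.5%), against 35.2% on the other arms and 35.1% of all pooled peaks. A further 132 were matched in replicate 2 alone, 138 in replicate 4 alone and 73 in neither. The pooled list was derived from both replicates, so these matches show which replicate carries a pooled peak and are not an independent test of it.

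Within a rank range, however, replicate support on chromosome 4 lay close to that elsewhere. Thresholding keeps peaks that agree between replicates, so a high share among them was largely set in advance. All 8 thresholded peaks on chromosome 4 were matched in both replicates (63.1 to 100%), against 94.4% on the other arms. From rank 2759 to 10000 it was 42 of 63 (66.7%, 53.7 to 78%), against 68.7%. From 10001 to 20000 it was 50 of 191 (26.2%), against 26.3%, and in the last 10000 ranks 4 of 185 (2.16%), against 3.15%. Each of the last 3 intervals included the share of the other arms.

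**Figure D3:**
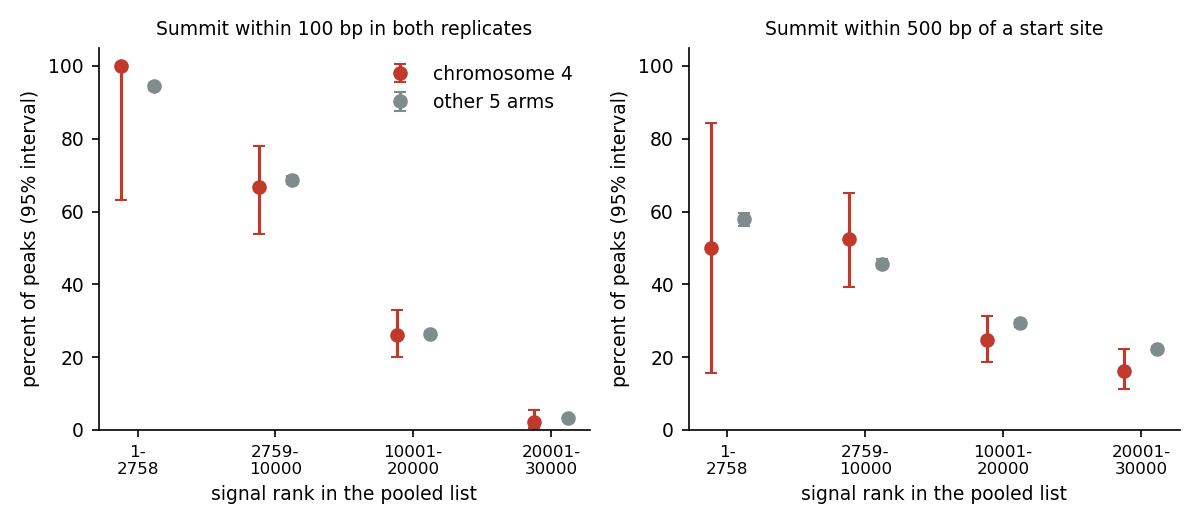
Percent of peaks with a summit within 100 bp in both replicates (left) and within 500 bp of a start site (right), by rank in the pooled list, for chromosome 4 (red) and the other 5 arms (grey), with exact 95% intervals. Replicate support was 66.7% on chromosome 4 and 68.7% elsewhere at ranks 2759 to 10000. In the last 10000 ranks 16.2% of chromosome 4 summits (11.2 to 22.3%) and 22.1% of others were at start sites.

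Over the 104 peaks in both replicates the signals of the replicates went together loosely. Spearman's rho was 0.48 and Pearson's r on the log10 scale 0.75 on chromosome 4, against 0.66 and 0.77 over 10412 peaks on the other arms. These describe peaks of the same libraries, which are not independent replicates. Only peaks 1 to 5 had a signal above 50 in both. Of the 104, 44 ranked higher in replicate 2 and 60 in replicate 4.

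**Figure D4:**
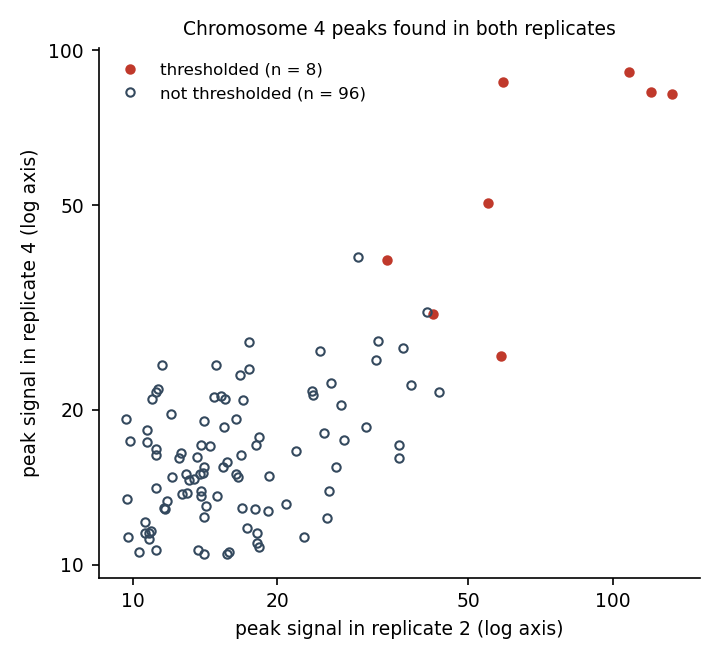
Signal in replicate 4 against signal in replicate 2 (both log axes) for the 104 chromosome 4 peaks with a summit within 100 bp in both lists, thresholded peaks filled. Above a signal of 50 in both replicates there are 5 peaks, numbers 1 to 5, and 86 of the 104 are below a signal of 30 in both.

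Peaks were spread along the chromosome from a first summit at 566, except for a long gap near its start and a stretch at its far end. The longest gap between neighbouring summits, 40483 bp, ran from 1626 to 42109. In windows of 100 kb there were 17 to 48 peaks in each of the first 13, and none past the summit at 1261168. The last window, from 1300001 to 1348131, consists of annotated transposons for 95.4% of its bases. The window before it, from 1200001, has 17000 unknown bases. Peaks in both replicates were most numerous, at 17, between 400001 and 500000, where thresholded peaks 1 and 3 lie, and there were 15 between 600001 and 700000, with gw and ey. The gene bodies with the most summits were those of pan with 19 (6 in both replicates), PMCA, a calcium pump gene, with 15 (0 in both), and sv with 14 (5 in both). Then came ey and unc-13, a gene of synaptic vesicle release, with 11 each (3 in both in each). Counts depend on gene length: per 10 kb there were 4.23 in pan, 4.88 in PMCA, 5.71 in sv and 4.68 in ey, but 2.47 in unc-13 and 1.92 in bt, the muscle gene with 10 summits. Of the 447 peaks, 112 (25.1%) had another within 500 bp, a share inside the 25 to 29.4% of the other arms.

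Peaks on chromosome 4 were enriched at start sites relative to its sequence, as on the other arms, and fewer of them were there in all. Summits within 500 bp of a start site numbered 114 (25.5%, 21.5 to 29.8%), against 33.5% on the other arms. Sequence within this distance makes up 10.7% of chromosome 4 and 13.6% of the other arms, so the ratio of summits to sequence was 2.37 on chromosome 4 and 2.47 elsewhere. Among peaks in both replicates the promoter share was 43.3% on chromosome 4 (45 of 104, 33.6 to 53.3%) and 42.4% on the other arms. From rank 2759 to 10000 it was 52.4% (39.4 to 65.1%), against 45.7%. From 10001 to 20000 it was 24.6% (18.7 to 31.3%), against 29.3%, and in the last 10000 ranks 16.2% (11.2 to 22.3%), against 22.1%. The interval of each of these rank ranges included the share of the other arms.

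Coding exons outside promoters held 51 summits (11.4%, 8.61 to 14.7%), against 5.39% on the other arms. They cover 18.9% of chromosome 4 and 13.8% of the other arms, so summits in them were fewer than their sequence on both, with ratios of 0.603 and 0.39. In both replicates it was 8 of 104 peaks (7.69%), against 2.26% elsewhere. Other exons held 12.1% of summits against 5.88%, with ratios to sequence of 1.27 on chromosome 4 and 1.01 elsewhere. Introns held 36.5% against 39.1%, with ratios of 0.855 and 0.992. Intergenic sequence held 14.5% against 16.1%, with ratios of 0.799 and 0.588.

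Promoter summits on chromosome 4 lay on both sides of the start sites. Of the 114, 59 were upstream of the nearest start (51.8%, 42.2 to 61.2%), against 60.3% on the other arms. The median position was -3.5 bp, against -40 bp, where minus is upstream. For promoter peaks in both replicates it was 25 of 45 upstream (55.6%, 40 to 70.4%), against 68.5%, and to rank 10000 it was 56.8% (39.5 to 72.9%), against 69%. Past rank 10000 it was 49.4% (37.8 to 61%), against 51.9%. All 4 intervals include the value of the other arms.

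Transposon sequence, which is plentiful on this chromosome, held summits mainly in 1 family. INE-1 is a short, old and widespread family of the fly genome with no known active copies. Its copies cover 7.22% of chromosome 4, against 0.131 to 0.513% of the other arms. On chromosome 4, 42 summits lay in INE-1 (9.4%, 6.86 to 12.5%), and the interval includes the share of sequence. On the other arms it was 0.244% of summits in 0.34% of sequence. All other transposons cover 17.6% of chromosome 4 and held 16 summits (3.58%, 2.06 to 5.75%), a ratio of 0.204. For the other arms this ratio was 0.0363. Among the 104 peaks in both replicates, 14 were in INE-1 (13.5%, 7.56 to 21.6%), a ratio of 1.86 to its sequence with an interval above the share of sequence, against a ratio of 0.508 on the other arms. Of the 42 INE-1 summits 24 were in introns. Those matched in both replicates were led by peak 34 in an intron of ey (summit 709921, signal 42.9, with 17.5 in replicate 2 and 24 in replicate 4), whose sequence is printed above. The highest of all, peak 25, lay 1803 bp upstream of fuss with a signal of 48.7 and 44.6 in replicate 2, and had no match in replicate 4. None of the 8 thresholded summits lay in a transposon. How well reads can be placed in repeats, and the signal of the control there, was not tested.

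**Figure D5:**
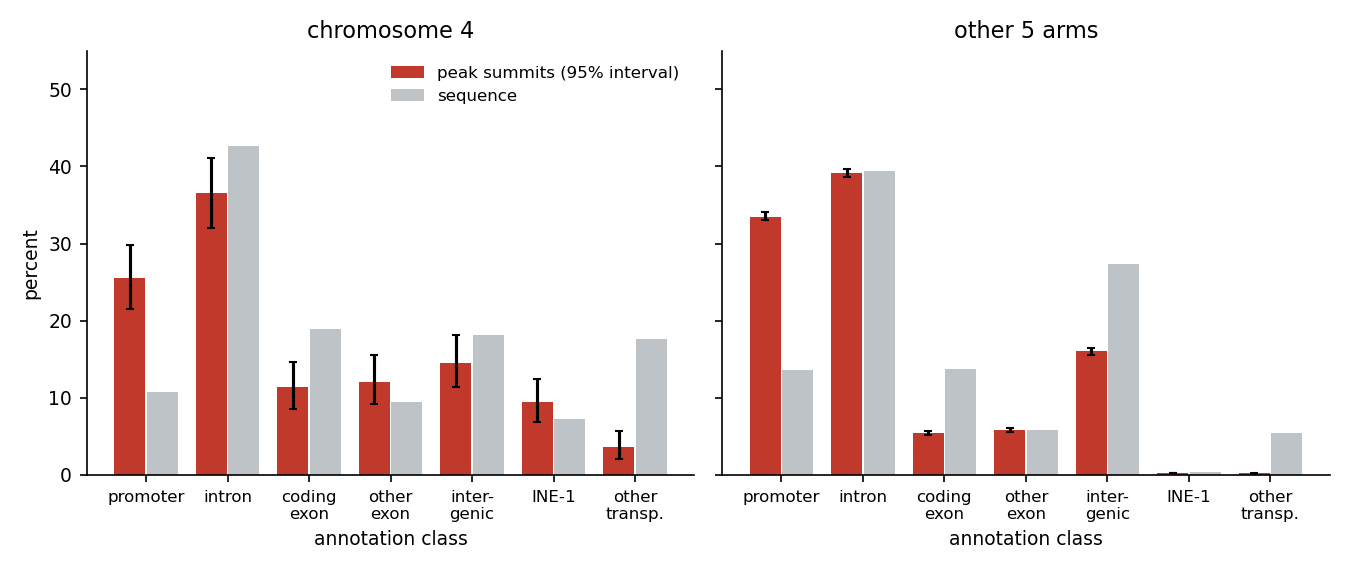
Percent of peak summits (red, exact 95% interval) and percent of sequence (grey) in each annotation class, for chromosome 4 (left panel) and the other 5 arms (right panel). The 5 gene classes add up to the whole, and the transposon classes overlap them; promoters hold 25.5% of chromosome 4 summits in 10.7% of its sequence, and transposons other than INE-1 hold 3.58% in 17.6%.

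Soft-masked sequence, which the RefSeq genome marks as repetitive or of low complexity, held 29.1% of chromosome 4 summits (24.9 to 33.5%), close to its 27.8% of the chromosome. On the other arms it was 18.4% of summits. Summits were also rich in A and T: the median G+C share within 100 bp was 34.3% on chromosome 4, where the whole sequence has 35.2%, against 39.3% on the other arms, which have 41.6 to 42.6%.

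Most genes of the chromosome had a peak of some signal at a start site, and few had a thresholded one. Of 80 protein-coding genes 65 had a pooled peak within 500 bp (81.2%, 71 to 89.1%), against 54.6% of those on the other arms. A gene counts if any of its start sites has a peak. These shares were not adjusted for the number of start sites per gene. With peaks to rank 10000 it was 31 (38.8%, 28.1 to 50.3%), against 35.6%. The gene's highest such peak was matched in both replicates at 36 (45%, 33.8 to 56.5%), against 31.3%. A thresholded peak was at 4, Sox102F, gw, CG31999 and ey (5%, 1.38 to 12.3%), against 14.5%. The highest promoter peak of a gene had a median signal of 32.9 over the 65 genes, against 43.5 over 7569 genes on the other arms.

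The genes were also grouped by role. Their counts stand beside 65 of all 80 genes (81.2%) with a promoter peak. At 36 (45%) the highest such peak was matched in both replicates. Of 17 genes for transcription and chromatin regulators 13 had a promoter peak. The gene's highest such peak was matched in both replicates at 8 and thresholded at 2, with a median signal of 36.8 (20 to 146). Beside Sox102F, ey, pan and lgs, ci, the Gli factor of Hedgehog signalling, had a peak 50 bp upstream with a signal of 51.3 (23.6 in replicate 2 and 21.8 in replicate 4). The Pax6 gene toy had 36.8 (18.3 in replicate 2 and 10.8 in replicate 4), and pho, a DNA-binding Polycomb group gene, had 34.9 (16.8 in replicate 2 and 16.3 in replicate 4). NfI had 47 in the pooled list and no summit within 100 bp in either replicate. Of the genes nearest to or under the strongest peaks away from promoters, zfh2 had promoter peaks of signal 20 at rank 24074 at the highest, and sv and fuss had none. Nor had fd102C and onecut.

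Genes of translation, energy and repair had the highest median signal of the role groups. Of 6 found on chromosome 4, 5 had a peak, all 5 were matched in both replicates, and 1 was thresholded (gw), with a median signal of 59.7 (30.9 to 111). Rad23, a gene of nucleotide excision repair, had 51.1 (35.9 in replicate 2 and 16.1 in replicate 4). ND-49, for a subunit of mitochondrial complex I, had 30.9 (16.9 in replicate 2 and 12.9 in replicate 4) at a peak shared with Ephrin. The translation initiation factor gene eIF4G1 had none. With 6 genes, and without a test, this order of the groups is a description.

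Among neuronal and guidance genes 8 of 11 had a promoter peak. The gene's highest such peak was matched in both replicates at 4 and thresholded at none, with a median signal of 30.2 (20.9 to 67.8). PlexA had 67.8 in the pooled list, with 29.5 in replicate 2 and 39.7 in replicate 4. The receptor tyrosine kinase gene Eph had 60.2 (32.1 in replicate 2 and 25 in replicate 4), and its ligand gene Ephrin had the shared peak of 30.9. PlexB, the other plexin gene, had 32.9. CaMKII, for a kinase of synaptic plasticity, had 29.5 and was matched in replicate 4 alone. The metabotropic glutamate receptor gene mGluR had 23.1 and was matched in neither. Cadps, Syt7 and dpr7 had none.

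Of 17 genes of signalling and other roles 14 had a promoter peak. The gene's highest such peak was matched in both replicates at 4 and thresholded at none, with a median signal of 29.5 (20 to 57.3). Asator led with 57.3, matched in replicate 2 alone, while its promoter peaks 42 and 46, of 40.6 and 39.5, were matched in both. Among genes for TGF-beta family ligands, Actbeta had 47.8 and mav 39.2, each matched in replicate 4 alone. A second Actbeta promoter peak, 199 bp away with a pooled signal of 24.5, was matched in replicate 2 alone, at 33.9. The gene myo had 32.5, matched in both (13.8 in replicate 2 and 15 in replicate 4). The DNA- and RNA-binding protein gene Pur-alpha had 51.1 (27.2 in replicate 2 and 20.4 in replicate 4), at a peak shared with Tdg. At bt, which encodes a giant titin-like muscle protein, the promoter peak had 24.2 and was matched in replicate 2 alone.

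Of the 8 motifs, CACTG differed most in percentage points between the summits of chromosome 4 and those of the other arms. Within 100 bp of the summit it was present at 97 peaks (21.7%, 18 to 25.8%), against 36.2% of peaks on the other arms and 36% of all pooled peaks. Windows of the same length tiled along chromosome 4 held it in 20.6%, and those along the other arms in 29.8%. So at this distance the share at summits lay near that of the windows on chromosome 4 and above that of the windows elsewhere. In both replicates it was 23.1% on chromosome 4, against 41.8%. Among thresholded peaks it was 2 of 8, against 48.4%, which the exact interval for 2 of 8 (3.19 to 65.1%) includes. The contrast depended on the distance. Within 50 bp CACTG was at 14.1% of chromosome 4 summits (11 to 17.7%) and in 10.8% of its windows, against 20.2% and 16.2% elsewhere. Within 150 bp these were 29.5% and 29.5%, against 47.5% and 40.9%.

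Within 100 bp some other letters stood above the chromosome's own windows. TATCGATA was at 17 summits (3.8%, 2.23 to 6.02%), against 2.17% on the other arms, in 1.98% of chromosome 4 windows and 0.55% of other windows. CAACACTG was at 8 (1.79%, 0.776 to 3.5%), against 1.37% on the other arms, in 0.634% and 0.55% of windows, and RpS3A and CaMKI, a calcium-dependent kinase gene, were among these. CGATA was at 30.2% of summits (26 to 34.7%), against 25.8%, in 24.9% and 21.3% of windows. Distance mattered here too. Within 50 bp the interval of CGATA, 13 to 20.1%, included the 13.3% of chromosome 4 windows. Within 150 bp that of CAACACTG, 0.776 to 3.5%, included the 0.927% of those windows. The rest were at or below the share of the chromosome 4 windows or close to it. GAGAG was at 14.8% (11.6 to 18.4%), against 23.4% on the other arms, and in 17.4% of chromosome 4 windows. GCCAT was at 22.6%, against 31.9%, and in 23.7% of windows. GGTCACAC was at 1 summit (0.224%, 0.00566 to 1.24%), against 1.76%, and in 0.302% of chromosome 4 windows and 0.431% of other windows. CAGGTAG was at 1.34%, against 1.08%, and in 1.21% of windows. These shares depend on base composition, which differs between the chromosomes, and a match of letters is not shown to be a bound site.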

How the data were processed

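ChIP-seq peak lists of 1 group with biological replicates 2 and 4 were used. The authors deposited, per the file headers and text records, narrowPeak lists for dm6 and dm3: 30000 peaks per replicate, 30000 pooled peaks called with a control, and 2758 peaks left by the irreproducible discovery rate. The deposited signal is the caller's own value on a scale not stated, and ranks within a list were made from it. The deposited −log10 q value is tied over strong peaks and was not used. Fragments were 200 to 800 bp, per the labels. Names of the caller and the aligner were not given in the sources used here. Read depth is unknown from these lists and no interval for depth can be given.

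The peaks of chromosome 4 and the gene lists were chosen with earlier results of these data known. Named genes are those at thresholded peaks, the nearest genes of the 20 highest chromosome 4 peaks, and members of the role lists. Peaks 25 and 34, the gene bodies and the printed sequence of peak 34 were chosen after their values were seen. Summits were matched between lists within 100 bp. Start sites are all transcript starts of the Ensembl annotation of this assembly, transposon records left out and used separately. Thd1, of the second role list, was not found on chromosome 4 under that symbol. Windows for motif shares were tiled in 201 bp. Shares have exact 95% binomial intervals, and no p-value was computed. Python 3.11.15, numpy 2.4.6, scipy 1.17.1, pandas 2.3.3 and matplotlib 3.10.9 were used. Matching, start site distance and overlap were tested on simulated data. Alternatives were each replicate alone, other distances, overlap rules, denominators and rank limits, and the dm3 lists.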

Additional observations from a re-analysis of the deposited data

How the results depend on the processing

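No paired analysis was possible because there is 1 group. The ratio of the chromosome 4 share of peaks to its share of length was 1.29 to 1.43 with a single replicate, 1.92 against start sites and 1.64 against unmasked sequence. It fell below 1 only with fewer peaks, 0.705 for the 10000 highest and 0.288 for as many as the thresholded list. The share of chromosome 4 peaks matched in both replicates was 15.4% within 50 bp, 33.1% within 200 bp, 45.4% with any overlap, 33.1% with overlap over 50% of the peak, and 4.92% among the 10000 highest peaks of each replicate. The other arms stood at 23.6%, 46.4%, 57.4%, 46.5% and 16.1% under these settings, above chromosome 4 in each. Promoter summits were 18.3% within 250 bp and 38.9% within 1000 bp. Masked summits were 6.71% when 50% of the interval had to be masked and 23.9 to 26.2% with a single replicate. The median rank was 16239 to 17419 with a single replicate. Genes with a peak were 68.8% within 250 bp, 91.2% within 1000 bp and 38.8% with the 10000 highest peaks, against 45.1%, 62% and 35.6% on the other arms. The share of thresholded peaks was 1.82% in dm3, and 1.12% with only the 1379 highest of the thresholded list. A single replicate had no thresholded list here. Its 2758 highest peaks instead held 2.57% of the chromosome 4 peaks of replicate 2 and 1.86% of those of replicate 4. With 8 thresholded peaks and 2 replicates, statements on the highest ranks rest on few peaks.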
